A study of Mus musculus with 2 samples.

Results

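Voltage-gated sodium and calcium channels carry the inward currents that electrically active cells use to fire and to signal with calcium. The genes described here are the 40 protein-coding mouse genes named for their subunits, of 43346 gene identifiers listed in the files. They were chosen by symbol alone: 10 sodium channel alpha genes, 4 sodium channel beta genes, 10 calcium channel alpha1 genes (Cacna1a to Cacna1s), 4 alpha2delta genes (Cacna2d1 to Cacna2d4), 4 calcium channel beta genes (Cacnb1 to Cacnb4) and 8 gamma genes (Cacng1 to Cacng8). The alpha and alpha1 genes, 20 in all, encode the pores, and the other 20 encode auxiliary subunits.

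The tissue was neural tube of B6NCrl mouse embryos of both sexes at embryonic day 11.5, with no treatment or mutation. It was sampled as a pool of 109 embryos (replicate 1) and a pool of 88 embryos (replicate 2), 1 RNA-seq library from each. The 2 libraries form 1 group, so no condition is compared: pores are set against auxiliary subunits within each library, and spread is given as the SD over both pools. Total expected counts, the authors' estimated reads, were 27638068 in replicate 1 and 29166901 in replicate 2.

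As background, a single large alpha or alpha1 protein forms the whole channel: the pore, the gate and the voltage sensors. Sodium channel beta subunits are small membrane proteins that alter gating and act in adhesion. Calcium channel beta subunits sit inside the cell and bind the alpha1 protein of the high-voltage-activated Cav1 and Cav2 types. The alpha2delta subunits lie outside the cell and raise the number of those channels at the surface. The Cav3, or T-type, channels open near rest and are not known to need either partner. Of the gamma genes, Cacng1 belongs to the muscle Cav1 channel, while Cacng2, Cacng3, Cacng4, Cacng5, Cacng7 and Cacng8 are better known as partners of AMPA-type glutamate receptors.

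Several short stretches of these genes show how the subunits are told apart. The first lies in the pore of repeat I of the sodium channel alpha proteins, where 1 residue is known, mainly from rat and human channels, to set how tightly the toxin tetrodotoxin binds. An aromatic residue there goes with tight binding, and serine with weak binding. The 30 bases around that codon were read from GENCODE M21 transcripts (GRCm38) and are shown for 4 alpha genes of the aromatic kind and for Scn10a of the serine kind, with the codon in capitals.
Scn3a (chr2:65521798-65521827, minus strand): atgactcaagacTACtgggagaacctttac
Scn9a (chr2:66548986-66549015, minus strand): atgactcaggacTACtgggagaacctttat
Scn2a (chr2:65688424-65688453, plus strand): atgactcaagacTTCtgggaaaacctttat
Scn8a (chr15:100971626-100971655, plus strand): atgactcaggacTACtgggagaacttatac
Scn10a (chr9:119666372-119666401, minus strand): atgacgcaggacTCCtgggaacggctgtac

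Tyrosine (TAC) or phenylalanine (TTC) is encoded at that codon in Scn3a, Scn9a, Scn2a, Scn8a, Scn1a and Scn4a, and serine (TCC) in Scn10a and Scn11a. The pattern was found in 9 of the 10 alpha genes and not in Scn7a. Over those 9 genes, the 6 with an aromatic codon held 97.3% ± 0.379 of the TPM (SD, n = 2), and the 2 with a serine codon held 1.13% ± 0.0708. TPM is the authors' transcript level, corrected for transcript length and scaled to a common total. Genes with an aromatic codon thus held nearly all the TPM of these 9 genes in both libraries. Scn7a, at 0.73 and 1.09 TPM in replicates 1 and 2, is outside this sum. The shares are of gene TPM, so they also count transcripts in which the codon was not looked for.

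The second stretch is the alpha interaction domain, the loop between repeats I and II through which Cav1 and Cav2 pores bind a beta subunit. It is shown for the 4 such pores with the highest levels, because a beta subunit gene, Cacnb3, proved the highest of all 40 genes. Capitals mark the tyrosine and tryptophan codons of the known beta-binding pattern. The 54 bases of Cacna1a, Cacna1b and Cacna1e cross an exon junction, so their coordinates span an intron that is not printed.
Cacna1a (chr8:84536125-84536403, plus strand): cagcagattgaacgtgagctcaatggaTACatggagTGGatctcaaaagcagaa
Cacna1c (chr6:118734906-118734959, minus strand): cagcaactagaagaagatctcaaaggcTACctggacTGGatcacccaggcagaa
Cacna1b (chr2:24719100-24719992, minus strand): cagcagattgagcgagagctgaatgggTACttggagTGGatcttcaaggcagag
Cacna1e (chr1:154488837-154493353, minus strand): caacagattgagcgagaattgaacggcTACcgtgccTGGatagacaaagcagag

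That pattern was found once in each of the 7 Cav1 and Cav2 pore genes and in none of the 3 Cav3 pore genes, Cacna1g, Cacna1h and Cacna1i. No match says only that these letters are not in the longest coding transcript searched.

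At a level of 1 TPM or more in both libraries, 25 of the 40 genes were detected (62.5%), against 59.9% of all 21474 protein-coding genes. By role, 11 of 20 pore genes and 14 of 20 auxiliary genes reached it. The median over the 40 genes was 1.94 TPM in replicate 1 and 2.02 TPM in replicate 2, while the median over all protein-coding genes was 4.32 and 4.41 TPM. As a group, the channel genes were therefore detected about as often as other genes at this cut, with lower median levels. The comparison depended on the cut. At 0.5 TPM 30 of the 40 were detected, a higher share than the 63.7% of all protein-coding genes. At 2 TPM 18 were, a lower share than the 55.5% of all protein-coding genes. In bulk tissue, few cells with much RNA and many cells with little RNA cannot be told apart.

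**Figure D1:**
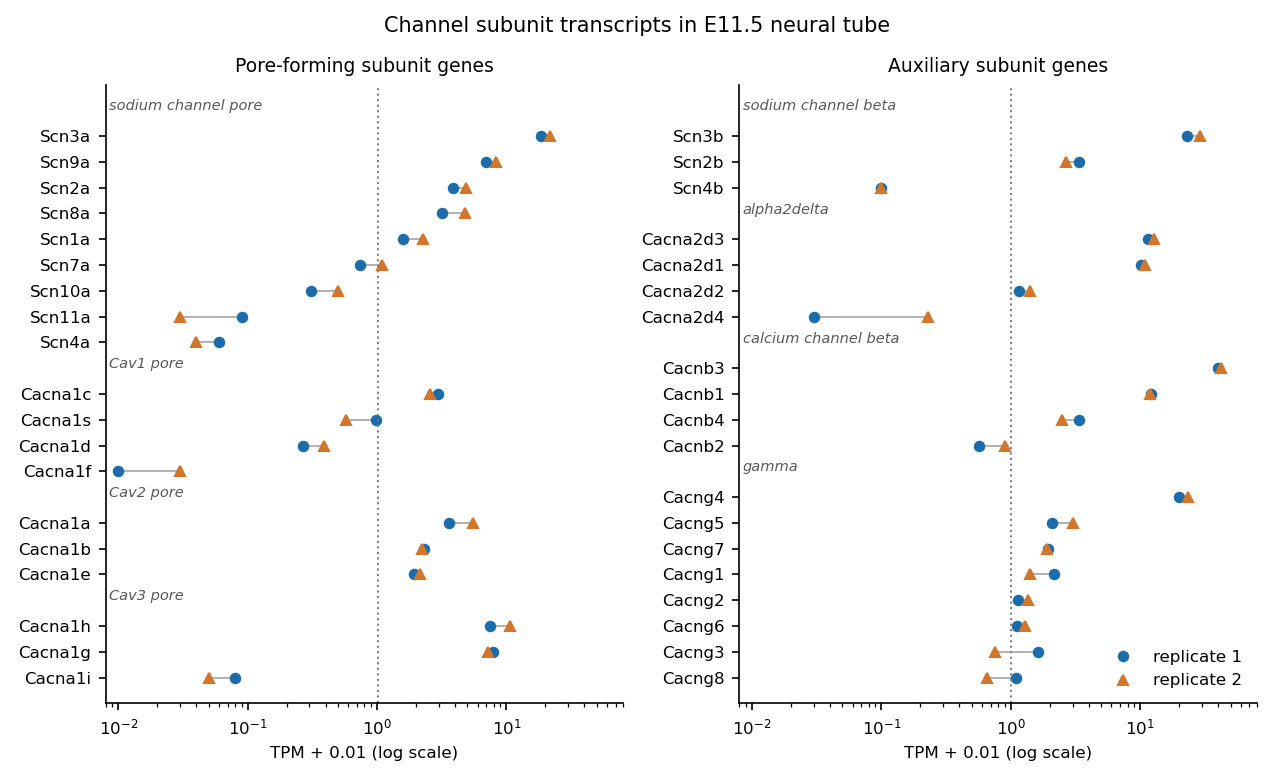
Level of 38 channel genes in both libraries (x axis, TPM plus 0.01 on a log scale), pore genes in the left panel and auxiliary genes in the right, with circles for replicate 1, triangles for replicate 2 and a dotted line at the detection level of 1 TPM. Scn3a was highest among sodium channel pores, and Cacna1h and Cacna1g were highest among calcium channel pores. Among auxiliary genes Scn3b, Cacnb3 and Cacng4 led their types, and Cacna2d3 and Cacna2d1 led the alpha2delta genes.

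Scn3a led the sodium channel pores. It encodes Nav1.3, known in rodents as the embryonic and neonatal brain sodium channel, and lies at chr2:65457118-65567627 on the minus strand. Its level was 18.7 TPM in replicate 1 and 21.7 TPM in replicate 2, a share of 50.4% ± 2.17 of the TPM of the 10 alpha genes (SD, n = 2). Scn9a, which encodes the Nav1.7 channel of peripheral sensory and sympathetic neurons, came next with 7.0 and 8.33 TPM and a share of 19.1% ± 0.486. The libraries of Scn3a and Scn9a did not overlap, so this order held against the spread between pools.

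Other alpha genes of the nervous system were detected at lower levels. Scn2a, the Nav1.2 gene of immature axons, had 3.86 and 4.83 TPM in replicates 1 and 2. Scn8a, which encodes Nav1.6, the main channel of mature nodes of Ranvier, had 3.18 and 4.81 TPM. Their gene TPM overlapped, but over near full-length coding transcripts Scn2a, at 2.87 and 2.65 TPM, was above Scn8a, at 1.39 and 1.90 TPM. Scn1a, the Nav1.1 gene known from inhibitory neurons, had 1.58 and 2.27 TPM, but 0.89 and 0.94 TPM over near full-length coding transcripts, below the detection level. The level of Scn3a was 4.83 times that of Scn2a in replicate 1 and 4.48 times in replicate 2.

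In all, 5 of the 10 alpha genes did not reach 1 TPM in both libraries. Scn7a, whose product Nax is a sodium sensor rather than a voltage-gated channel, had 0.73 and 1.09 TPM. The sensory neuron channel genes Scn10a and Scn11a had 0.30 and 0.49 TPM, and 0.08 and 0.02 TPM, in replicates 1 and 2. Scn4a, the channel of adult skeletal muscle, had 6 and 4 counts. Its low level stood beside skeletal muscle markers that were clearly present, described further on.

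Among sodium channel beta genes, Scn3b was far ahead. It had 22.9 TPM in replicate 1 and 28.9 TPM in replicate 2, a share of 87.3% ± 2.76 of the TPM of the 4 beta genes (SD, n = 2), and lies at chr9:40269217-40291618 on the plus strand. Scn2b, whose product is joined to the alpha protein by a disulfide bond, had 3.37 and 2.66 TPM. Scn4b had 0.09 TPM in both libraries.

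Of the calcium channel pores, the T-type genes were highest. Cacna1h (Cav3.2) had 7.49 and 10.6 TPM and Cacna1g (Cav3.1) had 7.90 and 7.18 TPM in replicates 1 and 2. Cacna1h was above Cacna1g in replicate 2 and below it in replicate 1, so their order is not settled by gene TPM. Over near full-length coding transcripts, defined further on, Cacna1h was above Cacna1g in both libraries. The third T-type gene, Cacna1i (Cav3.3), had 12 and 7 counts, or 0.07 and 0.04 TPM. Together the T-type genes summed to 16.6 ± 1.67 TPM, against 12.7 ± 0.990 TPM for the 7 Cav1 and Cav2 genes (SD, n = 2), and their sum was higher in both libraries, 1.29-fold and 1.33-fold.

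All 3 Cav2 genes, whose channels trigger transmitter release, were detected. Cacna1a (Cav2.1, P/Q-type) had 3.60 and 5.49 TPM in replicates 1 and 2. Cacna1b (Cav2.2, N-type) had 2.30 and 2.23 TPM. Cacna1e (Cav2.3, R-type) had 1.93 and 2.14 TPM. The rank of Cacna1a depends on which of its transcripts are counted, as the near full-length values given later show.

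Cacna1c was the only Cav1 gene detected. It encodes Cav1.2, the L-type channel of heart, smooth muscle and neurons, and had 2.94 and 2.57 TPM, or 71.6% ± 1.48 of the Cav1 TPM (SD, n = 2). Cacna1d, the L-type gene of pacemaking cells and neurons, had 0.26 and 0.38 TPM. Cacna1s, the skeletal muscle L-type gene, had 0.97 and 0.57 TPM on 60.5 and 32.6 counts. Cacna1f, the L-type gene of photoreceptors, had 0 and 2 counts, and 3 counts would have given 0.0558 TPM in replicate 1. Of 6 photoreceptor markers none was detected, and Crx, Nrl and Rcvrn had 0 counts in both libraries. Otx2 and Pde6b had 4 and 3 counts in replicate 2 and 4 counts each in replicate 1.

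The calcium channel beta genes summed to more than any other subunit type. Cacnb3 (chr15:98630840-98644529, plus strand), a beta subunit gene known mainly from nervous tissue and smooth muscle, had 40.3 TPM in replicate 1 and 42.1 TPM in replicate 2. It was the highest of all 40 channel genes, above 82.1% of protein-coding genes, and its libraries did not overlap those of Scn3b, the next one down. Cacnb1, whose product serves skeletal muscle and also brain, had 12.15 and 12.01 TPM. Cacnb4, a beta gene of brain, had 3.38 and 2.46 TPM. Cacnb2, the main beta gene of the heart, had 0.56 and 0.90 TPM. The share of Cacnb3 in the beta TPM was 72.3% ± 1.27 (SD, n = 2).

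A pair of alpha2delta genes shared most of their type's level. Cacna2d3 had 11.6 and 12.8 TPM and Cacna2d1, the gabapentin-binding subunit of muscle and neurons, had 10.2 and 10.9 TPM in replicates 1 and 2. Their shares were 50.5% ± 0.106 and 43.8% ± 0.873 (SD, n = 2). Cacna2d2, known from the cerebellum, had 1.14 and 1.41 TPM. Cacna2d4, known from retina, had 2 and 4 counts.

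Cacng4 led the gamma genes. It had 19.9 TPM in replicate 1 and 23.5 TPM in replicate 2 (chr11:107732357-107794557, minus strand), 66.8% ± 3.65 of the gamma TPM (SD, n = 2). Cacng5 had 2.08 and 3.02 TPM, and Cacng7 had 1.94 and 1.90 TPM. Cacng2, the stargazin gene, had 1.12 and 1.35 TPM, Cacng6, the closest relative of Cacng1, had 1.10 and 1.28 TPM, Cacng3 had 1.61 and 0.74 TPM, and Cacng8 had 1.09 and 0.65 TPM. Cacng1, the skeletal muscle gamma gene, had 2.15 and 1.40 TPM. Beside the gamma genes known as AMPA receptor partners, the 4 AMPA receptor pore genes were all detected. Gria2 was the highest of them at 13.8 and 15.1 TPM, and Gria4 had 5.79 and 4.17 TPM. The 2 cornichon genes on the same list, which do not encode receptor pores, were also detected, with Cnih2 at 86.5 and 96.9 TPM.

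When all 40 genes are placed in order of mean level, only 8 of the 39 neighbouring pairs had libraries that did not overlap. The separated steps included Cacnb3 above Scn3b, Scn3a above Cacna2d3 and Cacna1g above Cacna1a. Cacnb1 was above Cacna2d1, but over near full-length coding transcripts it was below, at 8.28 and 8.23 TPM against 10.2 and 10.9 TPM for Cacna2d1. Over all protein-coding transcripts of each gene Cacnb1 stayed above, at 11.6 and 11.2 TPM, so this order depends on which transcripts are counted. Scn3b, Cacng4 and Scn3a could not be ranked neighbour by neighbour by gene TPM, and neither could Cacna2d1, Cacna1h, Scn9a and Cacna1g. Over near full-length coding transcripts Scn3a lay below both Cacng4 and Scn3b in both libraries, and Scn9a (5.85 and 7.13 TPM), Cacna1h (4.77 and 5.69 TPM) and Cacna1g (3.43 and 3.09 TPM) were separated in that order.

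Auxiliary subunits outweighed pores for calcium channels but not for sodium channels. The 10 sodium channel pore genes summed to 40.1 ± 5.93 TPM, against 29.6 ± 3.86 TPM for the 4 beta genes (SD, n = 2), a log2 ratio of 0.44 ± 0.03. The 10 calcium channel pore genes summed to 29.3 ± 2.66 TPM, against 113 ± 4.41 TPM for the 16 auxiliary genes, a log2 ratio of -1.95 ± 0.07. The calcium channel auxiliary sum was thus 4.02-fold the pore sum in replicate 1 and 3.73-fold in replicate 2. With the gamma genes left out, it was still 2.77 ± 0.168 times the pore sum.

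By partner, the 7 Cav1 and Cav2 pore genes summed to 12.7 ± 0.990 TPM, against 56.9 ± 0.764 TPM for the 4 calcium channel beta genes. The beta sum was 4.49 ± 0.290 times the sum of the pores that carry the interaction domain printed above. All 10 calcium channel pore genes together were 1.20 and 1.23 times the alpha2delta sum in replicates 1 and 2. These are ratios of summed transcript levels and say nothing of protein or of assembled channels.

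Gene by gene, whether the typical pore level differed from the auxiliary one depended on how it was summed up. The median of log2(TPM + 1) over pore genes minus that over auxiliary genes was -0.13 in replicate 1 and 0.27 in replicate 2, a mean of 0.07 ± 0.28 (SD, n = 2). The sign differed between the libraries. Over near full-length coding transcripts the difference was -0.46 ± 0.16, without gamma genes -0.42 ± 0.36 and as a difference of means -0.51 ± 0.08, so that pore genes were lower in both libraries. Over detected genes only, the difference of medians was 0.34 ± 0.38, of the opposite sign and within its SD. Among calcium channel auxiliary genes, Cacnb3, Cacng4, Cacna2d3, Cacnb1 and Cacna2d1 were each above 10 TPM.

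**Figure D2:**
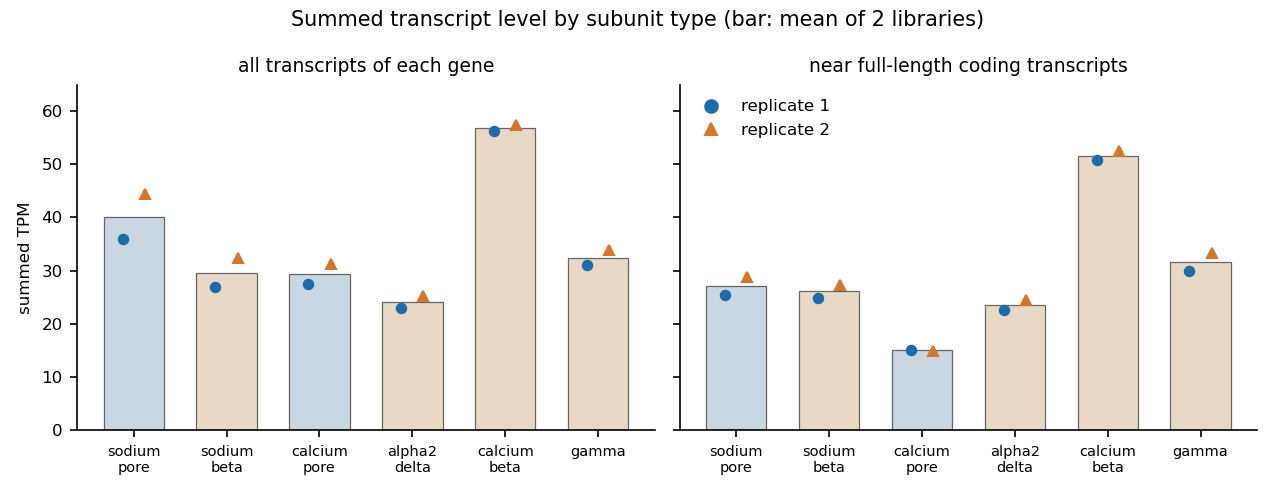
Summed TPM of each subunit type (bars, mean of 2 libraries; circles, replicate 1; triangles, replicate 2), with all transcripts of each gene on the left and near full-length coding transcripts on the right. Calcium channel beta genes had the highest sum in both panels, and the calcium channel pore sum was 29.3 TPM on the left and 15 TPM on the right.

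Pore genes are long and are annotated with many short fragments, and a short entry reaches a high TPM from few counts. The levels were therefore also summed over near full-length coding transcripts, those with at least 80% of the longest coding length of their gene. In the 11 detected pore genes such transcripts held a median of 92.7% of the expected counts but 58.6% of the TPM. In the 14 detected auxiliary genes the medians were 100% and 100%, and in 10 of them near full-length transcripts held everything.

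The gap was widest for Cacna1a. Its near full-length transcripts held 82.8% of counts and 32.6% of TPM in replicate 1, and 79.98% of counts and 25.1% of TPM in replicate 2. A 249-base entry without coding sequence, Cacna1a-205, took 0.75 and 4.49 counts yet 0.29 and 1.67 TPM. Scn8a showed a like gap, with 89.8% of counts and 43.6% of TPM in replicate 1 and 88.3% and 39.6% in replicate 2. The 1072-base Scn8a-202, which has 306 coding bases, accounted for 1.80 and 2.90 TPM of that gene. In Scn3a the 365-base Scn3a-203 had 26.7 and 37.0 counts and 5.77 and 7.74 TPM.

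**Figure D3:**
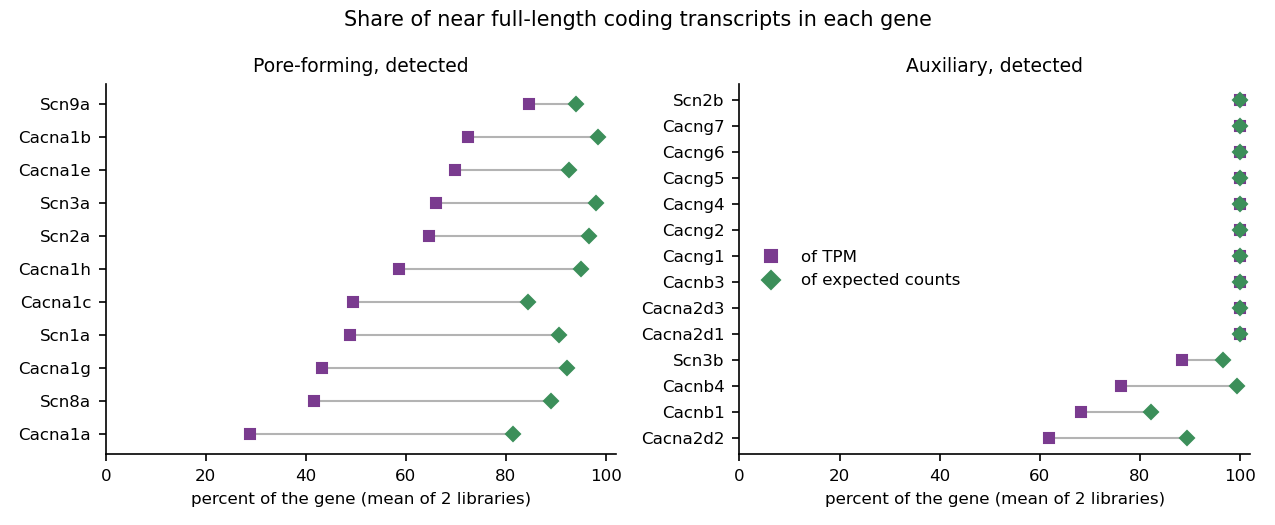
Share of near full-length coding transcripts in the TPM (squares) and in the expected counts (diamonds) of each detected gene, as a mean of 2 libraries, for pore genes on the left and auxiliary genes on the right. In pore genes the share of TPM ran from 28.9% to 84.6% and that of counts from 81.4% to 98.3%, while 10 of the 14 auxiliary genes had both at 100%.

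Counted this way, 23 channel genes were detected, without Scn1a and Cacna2d2 (0.81 and 0.75 TPM), several orders changed, and the balance between pores and auxiliary subunits moved. Scn3a had 12.8 and 13.8 TPM and remained at 49.0% ± 1.71 of the sodium channel pore TPM (SD, n = 2). Cacna1a had 1.17 and 1.38 TPM, below Cacna1b with 1.79 and 1.51 TPM and Cacna1e with 1.40 and 1.44 TPM, so its lead among the Cav2 genes was lost. The log2 ratio of sodium channel pore to beta sums was 0.05 ± 0.03, close to equal sums. For calcium channels it was -2.83 ± 0.08, an auxiliary sum 7.12 ± 0.393 times the pore sum, or 5.01 ± 0.212 times without gamma genes. The calcium channel beta sum was 8.04 ± 0.849 times that of the Cav1 and Cav2 pores. The ratio of all calcium channel pores, T-type genes included, to alpha2delta changed direction, with a log2 value of 0.28 ± 0.03 over all transcripts and -0.65 ± 0.09 over near full-length ones. For the Cav1 and Cav2 pores alone the direction stayed. Their near full-length sums were 6.84 and 6.07 TPM in replicates 1 and 2, against 22.6 and 24.4 TPM for alpha2delta.

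The transcripts that led each high gene were mostly full coding forms. Cacna2d3-201 and Cacng4-201 held all the counts of their genes. Cacnb1-201 had 8.28 and 8.23 TPM, Cacna2d1-203 had 7.53 and 8.48 TPM, and Scn3b-201 had 14.5 and 16.0 TPM. Scn3a-202 had 9.42 and 9.31 TPM, Scn9a-202 had 5.28 and 6.24 TPM, Cacna1h-205 had 4.77 and 5.12 TPM and Cacna1g-208 had 2.42 and 1.97 TPM. In Cacnb2, by contrast, near full-length transcripts had 0 counts in replicate 1, and most of its counts fell on entries that retain introns.

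Cacnb3 carries a choice of first exon. The transcript Cacnb3-202, with its first exon at chr15:98632376-98632520, made up 88.8% of the gene's TPM in replicate 1 and 90.7% in replicate 2. Cacnb3-201, whose first exon is at chr15:98634767-98635213, made up 11.2% and 9.33%. Because these are the highest transcripts of the set, the 250 bases before each of the gene's start sites in RefSeq (GRCm38.p6) are shown, with each CG in capitals.
Cacnb3 upstream window (chr15:98632078-98632327, plus strand): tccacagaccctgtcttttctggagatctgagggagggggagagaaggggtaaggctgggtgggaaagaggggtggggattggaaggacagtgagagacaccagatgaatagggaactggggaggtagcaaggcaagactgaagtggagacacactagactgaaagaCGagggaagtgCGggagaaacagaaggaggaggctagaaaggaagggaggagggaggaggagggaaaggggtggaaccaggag
Cacnb3 downstream window (chr15:98634517-98634766, plus strand): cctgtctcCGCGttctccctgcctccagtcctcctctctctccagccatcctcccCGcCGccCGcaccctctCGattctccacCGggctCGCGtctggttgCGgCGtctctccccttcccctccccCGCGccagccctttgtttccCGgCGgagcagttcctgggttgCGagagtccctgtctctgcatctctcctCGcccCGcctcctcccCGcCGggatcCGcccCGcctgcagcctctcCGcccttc

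The upstream window ends before the RefSeq start site at position 98632328, close to the first exon of Cacnb3-202, and holds 2 CG. The downstream window ends before the start at position 98634767 and holds 23 CG. Among 32851 RefSeq windows of the same length, 92.1% hold a CG and the median is 6. At most 2 CG occur in 29.03% of them, and 23 or more in 13.3%. Of the quantified transcripts, the more abundant is thus annotated from the CG-poor start. GENCODE M21 begins the gene further upstream, at position 98630840, where neither of the first exons given here begins. These counts describe letters only, and no methylation or binding was measured.

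Many of the genes lie close together. The block on chromosome 2 holds Scn3a, Scn2a, Scn1a, Scn9a and Scn7a within 1328 kb, with mean levels of 20.2, 4.35, 1.93, 7.67 and 0.91 TPM in that order along the chromosome. The levels did not follow position, since the 2 highest genes were the first and the fourth. On chromosome 9, Scn10a and Scn11a are neighbours and both were below 1 TPM, and Scn2b and Scn4b lie within 36.4 kb at means of 3.02 and 0.09 TPM. On chromosome 11, Cacng4 at 21.7 TPM sits between Cacng1 at 1.78 TPM and Cacng5 at 2.55 TPM within 212 kb. The Cacng7, Cacng8 and Cacng6 block on chromosome 7 spans 103 kb at 1.92, 0.87 and 1.19 TPM.

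Similar sequences could in principle trade reads among the sodium channel alpha genes of chromosome 2. Of all 100-base windows of its transcripts, Scn3a shares 2.22% exactly with another gene, Scn9a 1.44%, Scn2a 1.03% and Scn1a 0.88%. The other alpha genes share none. Exon bases of 11 channel genes overlap another gene, 10 of them on the opposite strand, and the sources do not say whether strand was used in counting. The overlap reached 5% of exon bases in 3 genes. They were Cacna1s with Gm37759 (20.0%), Cacnb4 with A430018G15Rik (16.0%) and Cacng2 with A730060N03Rik (5.86%). How far this affects the levels of these 3 genes was not tested.

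The libraries were then compared with each other, replicate 2 over replicate 1, on counts scaled by TMM, which corrects for library size and composition. With 1 library a side there is no spread within a side, so this says how far the pools differ and is no test of a condition. At least 10 counts in either library were required, which left 35 channel genes of 17219 genes. Past 1.5-fold, 2 channel genes were higher in replicate 2 (5.71%, against 4.87% of all genes compared) and 5 were lower (14.3%, against 5.95%). Scn10a was among the higher genes. Cacna1s, Cacna1i, Cacng1, Cacng3 and Cacng8 were lower.

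The genes past 1.5-fold all had low counts. Scn10a had 56 counts in replicate 2 and 33 in replicate 1, Cacng1 had 29 and 43, Cacng3 had 18 and 38, and Cacng8 had 21 and 34. Cacna1i had 7 and 12. None of the channel genes with a mean of 5 TPM or more passed 1.5-fold.

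A two-sided exact binomial test of the counts, with Benjamini-Hochberg adjustment over all genes compared, found 8 channel genes higher in replicate 2 (22.9%, against 10.4% of all genes) and 4 lower (11.4%, against 9.69%). This test covers counting error only and passes small changes in genes with many counts. Among the higher ones were the pore genes Scn9a, Scn8a, Scn7a and Cacna1h and the auxiliary genes Scn3b, Cacng4 and Cacng5. Lower were the pore genes Cacna1c and Cacna1s and the auxiliary genes Scn2b and Cacng3. The log2 ratios of these named genes ran from -1.08 for Cacng3 to 0.52 for Scn7a.

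Within the sodium channel pores, 4 of the 8 genes compared were higher by this test and none was lower, against 10.4% and 9.69% of all genes. Their median log2 ratio was 0.32, against 0.00056 over all protein-coding genes. Of the 8, 7 had ratios above 0, and Scn2a was below at -0.12 and did not pass. Scn8a had 433 counts in replicate 2 and 299 in replicate 1, a log2 ratio of 0.44 (exact binomial test, adjusted p = 0.00063). Scn3a, with 2217 and 1969 counts, had a log2 ratio of 0.08 and did not pass (adjusted p = 0.19 by the same exact test). For Cacna1a the TPM values lie further apart than the counts, with 243 and 192 counts and a log2 ratio of 0.25 that did not pass (adjusted p = 0.21, exact test).

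**Figure D4:**
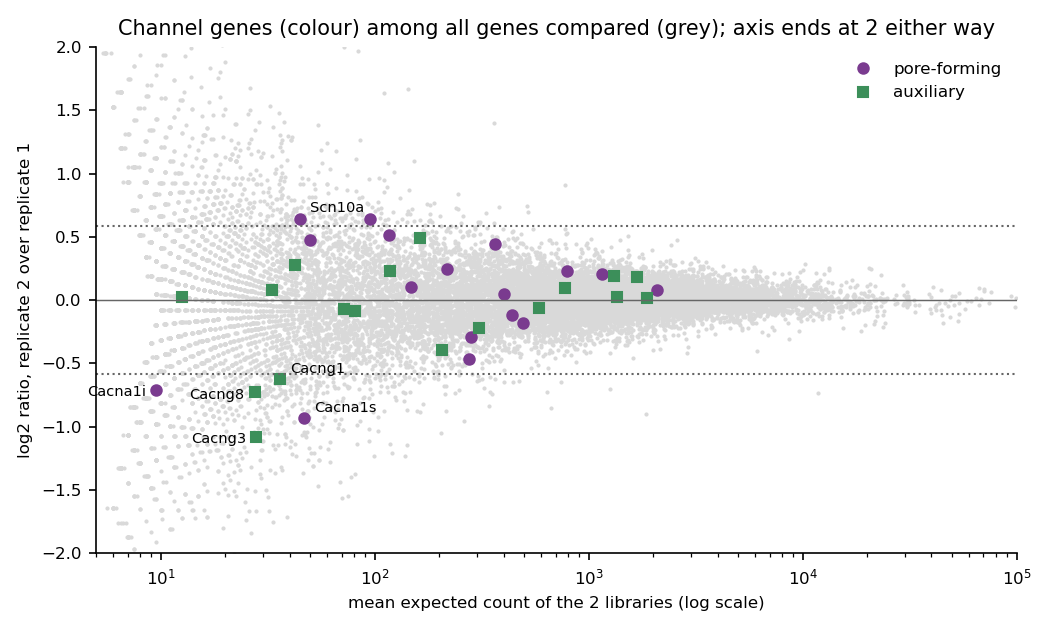
Log2 ratio of scaled counts, replicate 2 over replicate 1 (y axis), against the mean expected count of the libraries (x axis, log scale), for pore genes (purple circles), auxiliary genes (green squares) and all 17219 genes compared (grey); 149 genes lie beyond the axis limit of 2 in either direction. The 6 named genes lie beyond the dotted lines at 1.5-fold, and all have mean counts below 100.

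Markers of the cells that the dissected tissue could hold were read beside these differences. Markers of neural progenitors (6 of 6, led by Vim, Fabp7 and Hes5) and of young neurons (6 of 6, led by Tubb3 at 802 TPM in replicate 2 and 679 TPM in replicate 1, Nefl and Stmn2) were detected. Young neuron markers had 5 of 6 genes higher in replicate 2 by the exact binomial test and none lower, and their summed level was 1907 TPM in replicate 2 and 1643 TPM in replicate 1. Progenitor markers had 2 of 6 higher and none lower. The part of either in the channel differences was not tested.

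Sensory neurons and peripheral glia were represented as well. Sensory neuron markers, led by Isl1, Pou4f1 and Prph, had 4 of 6 detected and 3 higher in replicate 2, with sums of 242 and 192 TPM in replicates 2 and 1. Isl1 and Pou4f1 are also known from neurons of the central nervous system. Runx1, on the same list, went the other way, with 86 counts in replicate 2 and 112 in replicate 1. Its log2 ratio of -0.46 did not pass (adjusted p = 0.092, exact binomial test). Markers of Schwann cell precursors and glia, with Sox10 and Mbp among the highest, had 6 of 6 detected and 3 higher, with sums of 91.2 and 72.8 TPM. Scn9a, Scn10a and Scn7a, genes known from these peripheral cells, all had ratios above 0 (log2 0.20, 0.64 and 0.52), and Scn9a and Scn7a passed the test. Scn11a, also a sensory neuron gene, went the other way with 2 counts in replicate 2 and 8 in replicate 1, too few to be compared. What part these cells had in that was not tested.

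Skeletal muscle markers moved the other way. All 6 were detected, led by Acta1, Mylpf and Tnnt1, and 5 were lower in replicate 2, with sums of 258 TPM in replicate 2 and 315 TPM in replicate 1. Cacna1s and Cacng1, the muscle L-type pore and its gamma subunit, had log2 ratios of -0.93 and -0.62, and Cacna1s passed the exact binomial test (adjusted p = 0.014) while Cacng1 did not (adjusted p = 0.18). Cacnb1 and Cacna2d1, whose products serve muscle and also nervous tissue, had log2 ratios of -0.06 and 0.02 and did not pass. Ryr1, the calcium release channel that Cacna1s opens in muscle, had 306 counts in replicate 2 and 320 in replicate 1 and did not pass.

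Heart muscle markers were low, with 3 of 6 detected, led by Myl4, Myl7 and Tnni3. Myl7 had 118 counts in replicate 2 and 26 in replicate 1, and Nppa had 32 and 12.2. Both passed the test, while Nkx2-5, a defining heart factor, had 1 and 3 counts. The summed level of the 6 was 45.7 TPM in replicate 2 and 35.3 TPM in replicate 1. Smooth muscle and pericyte markers, led by Acta2, Pdgfrb and Notch3, had 5 of 6 detected and 3 lower in replicate 2, with sums of 103 and 118 TPM. Cacna1c, known from heart, smooth muscle and neurons, was lower at 241 counts in replicate 2 and 313 in replicate 1 (log2 -0.46). The median log2 ratios of the heart and young neuron markers were above 0, at 0.56 and 0.12. The heart median, over 5 genes compared, was the ratio of Tnni3, which had 26 counts in replicate 2 and 16 in replicate 1 and did not pass. Myl4, the highest heart marker, had a log2 ratio of -0.12 and did not pass. Endothelial markers, led by Egfl7, Cldn5 and Esam, had 6 of 6 detected and none that passed in either direction. The parts of these cell types in the channel differences were not tested.

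**Figure D5:**
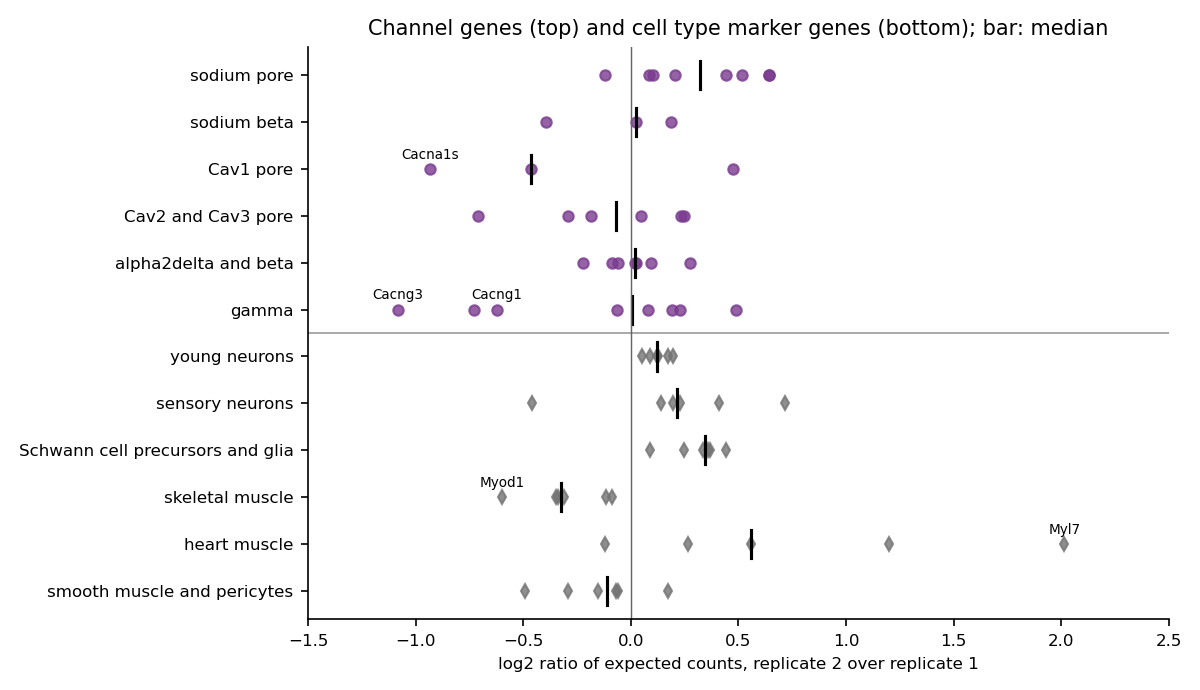
Log2 ratio of scaled counts, replicate 2 over replicate 1, for channel genes by subunit type (purple circles, above the line) and for cell type markers (grey diamonds, below it), 1 point a gene, with a black bar at each median. Sodium channel pores lay mostly to the right of 0 (median 0.32), and skeletal muscle markers to the left (median -0.32).

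Genes whose products work with these channels were counted in the same way. Beside them, 59.9% of all protein-coding genes were detected. By the exact binomial test 10.4% of all genes compared were higher in replicate 2 and 9.69% were lower. Of 16 genes for sodium channel binding and placement, 15 were detected, with the calmodulin gene Calm2 and the ubiquitin ligase gene Nedd4 among the highest, with 5 higher in replicate 2 and 1 lower. Ank3, which encodes ankyrin-G, the anchor of sodium channels at the axon initial segment, had 52.5 and 55.1 TPM in replicates 1 and 2. Sptbn4, the beta-IV spectrin gene of the same site, was the 1 gene not detected, at 0.18 and 0.27 TPM. The cytoplasmic partner gene Fgf13 had 34.3 and 40.5 TPM.

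Of 15 genes for calcium channel binding and inhibition, 12 were detected, led by the synaptic genes Snap25, Stx1a and Syt1, and 2 were higher in replicate 2. Snap25 and Syt1 are also on the young neuron list. Rem2, a small GTPase known to inhibit high-voltage-activated calcium channels, had 18.2 and 20.7 TPM. Of 12 calcium release partners 7 were detected, led by Jph3, Casq2 and Itpr2, with 2 higher. Of 12 related channel genes 8 were detected, led by the store-operated calcium entry genes Orai1 and Stim1 and by Tpcn1, with 3 higher and 2 lower. Nalcn, the sodium leak channel gene, had 1.25 and 1.78 TPM, and the sperm channel genes Catsper1 and Catsper4 had 0 counts in both libraries.

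All 8 genes of the REST complex, a repressor known to hold down neuronal genes such as Scn2a in other cells, were detected, led by Hdac2, Hdac1 and Sin3b. Rest itself had 19.9 TPM in replicate 2 and 22.2 TPM in replicate 1, and was the only 1 of the 8 that passed the exact binomial test between libraries (log2 ratio -0.21, adjusted p = 9.9e-06). None of the 6 genes on the AMPA receptor list, cornichon genes included, passed it.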

How the data were processed

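Total RNA was extracted with Ambion mirVana, RNA over 200 bases was kept, 10 ng entered each library with spike-ins, and the general protocol was SmartSeq, per the labels' protocols. The authors deposited expected counts and TPM per gene and transcript, made on mm10 with GENCODE M4 per the deposited file descriptions. The deposited files also give the percent of its gene that each transcript makes up. TPM included spike-ins, at 13.2% in replicate 1 and 11.8% in replicate 2. The aligner, quantifier and strand setting: not given in the sources used here. The labels call the pools biological replicates, and each SD is over these 2 pools.

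Symbols, types, coordinates and sequences came from GENCODE M21 on GRCm38, the same build, by identifier without version (42462 of 43346 matched; 884 did not). Promoter windows came from RefSeq, with entries for 30 of the 40 genes. Near full-length transcripts were defined after the data were seen. Expected counts were rounded for the tests. TMM came from edgeR 4.0.16 and size factors from DESeq2 1.42.0, and ratios used a prior count of 2. SciPy 1.17.1 gave the exact binomial test, whose threshold was an adjusted p of 0.05; edgeR's own test needs residual degrees of freedom, which 2 libraries do not give. The ratio and test were checked on simulated counts. Limits from 3 counts and the test cover counting error only.

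Each channel gene entered the set by its symbol alone. The set itself and the 15 lists of partners and markers (121 genes) were chosen with earlier results of these data known. Every channel gene was to be named, those with a mean of 1 TPM or more with both values; a few genes are not reported here by name, and counts and sums include them. The leading transcript is given for genes with a mean of 5 TPM or more. Of each list the 3 highest genes are named, plus those a comparison needs. Alternatives tried were other detection levels, pseudocounts, scalings and count filters, the posterior mean estimates, leaving out a library, and other sums.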

Additional observations from a re-analysis of the deposited data

How the results depend on the processing

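The number of channel genes detected, 25, lay between 18 and 34 under every alternative run, and was 26 and 27 from single libraries. At 2 TPM 18 of the 40 were detected, a lower share than the 55.5% of all protein-coding genes. At 0.5 TPM 30 were, a higher share than the 63.7% of all protein-coding genes. Among the alternatives, an all-gene share was worked out only for these levels and for posterior mean TPM. The difference of pore and auxiliary medians, 0.07, was -0.42 without gamma genes, -0.51 as a difference of means and -0.46 over near full-length coding transcripts, and ran from -0.13 to 0.27 when either library was left out. Over detected genes only, that difference was 0.34, so its sign depended on the setting. The sodium channel log2 ratio of 0.44 was 0.47 over protein-coding transcripts and 0.053 over near full-length ones, with 0.42 to 0.45 from single libraries. The calcium channel log2 ratio of -1.95 was -1.74 with posterior mean TPM, -2.67 over protein-coding transcripts, -2.83 over near full-length ones and -1.47 without gamma genes, with -2.01 to -1.90 from single libraries, so it kept its sign throughout. The 7 genes past 1.5-fold became 1 (Cacng3) at 2-fold, and 9 without a count filter. The 12 genes passing the exact binomial test were the same genes under DESeq2 size factors, total counts and posterior mean counts, and 11 of them passed without a count filter. Of the 40 mean levels, 13 moved by more than their SD with posterior mean TPM and 18 over near full-length transcripts. No paired analysis was possible because the 2 libraries belong to 1 group, and leaving out a library ends the comparison between libraries. The cause of these shifts was not tested, beyond the sums' own construction. Depth limits the lowest genes: 5 of the 40 had fewer than 10 counts in both libraries and were not compared.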
